A study of Mus musculus with 65 samples.

Results

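Among 48 mouse mammary tumours, the 12 with the highest and the 12 with the lowest expression of milk genes were compared. Each tumour received a casein score, the mean log2 level of Csn2 (beta-casein), Csn3 (kappa-casein) and Lalba (alpha-lactalbumin), each read by the probe set that was brightest on average in tumours. The 24 tumours in between are called the middle tumours. Both groups were thus chosen by the levels of these 3 genes, so the score and its 3 genes are given below as a description only, and they stay out of every test across genes. The whole series holds 65 samples, and its 17 mammary glands were not analysed here.

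All tumours arose from p53null mammary fragments of BALB/c donors, so both groups share the loss of p53 in the transplanted cells. The fragments had been transplanted into inguinal fat pads of female BALB/c hosts whose own epithelium was removed at 3 weeks of age. The hosts were TGFb1 heterozygous and irradiated (10 tumours), TGFb1 heterozygous and sham-irradiated (6), wild type and irradiated (23), or wild type and sham-irradiated (9). Irradiation came a few days before the transplantation, and the dose to the hosts is not stated in the labels. The host genotype reaches only the cells that the host contributes to a tumour, such as stroma, vessels and immune cells. In 1 tumour of an irradiated wild-type host the labels disagree on host treatment. It was placed by its title and is a middle tumour, so it is in neither extreme group.

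Caseins, alpha-lactalbumin and whey acidic protein are the main proteins of mouse milk, and are made by alveolar luminal cells. In those cells prolactin acts through its receptor and the kinase Jak2 on the transcription factor Stat5a, and the Ets factor Elf5 acts beside Stat5a in setting up the secretory programme. Glands of virgin animals make little milk protein, but mammary tumours can carry parts of the programme. A core letter pattern bound by STAT5 proteins is TTCNNNGAA, where N is any base.

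The 250 bases upstream of the start sites of 5 milk protein genes, from RefSeq on GRCm38.p6, are shown because these milk genes carry the comparison. Capitals mark TTCNNNGAA, the only pattern searched, which matches on both strands at once. Csn2, a score gene, lies at chr5:87699426-87699675 on the minus strand, Csn1s1 at chr5:87665958-87666207 and Csn1s2a at chr5:87774200-87774449 on the plus strand, Glycam1 at chr15:103565082-103565331 and Wap at chr11:6638650-6638899 on the minus strand.
Csn2: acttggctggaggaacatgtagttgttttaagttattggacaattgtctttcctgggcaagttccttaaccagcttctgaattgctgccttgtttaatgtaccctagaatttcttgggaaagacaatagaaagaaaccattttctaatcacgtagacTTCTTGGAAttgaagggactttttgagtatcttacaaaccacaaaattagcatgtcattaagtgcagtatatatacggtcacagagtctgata
Csn1s1: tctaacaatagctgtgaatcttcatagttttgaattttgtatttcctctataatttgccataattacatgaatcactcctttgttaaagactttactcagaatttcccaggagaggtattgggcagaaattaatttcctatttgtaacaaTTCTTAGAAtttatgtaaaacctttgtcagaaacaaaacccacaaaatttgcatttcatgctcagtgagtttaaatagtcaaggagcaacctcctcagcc
Glycam1: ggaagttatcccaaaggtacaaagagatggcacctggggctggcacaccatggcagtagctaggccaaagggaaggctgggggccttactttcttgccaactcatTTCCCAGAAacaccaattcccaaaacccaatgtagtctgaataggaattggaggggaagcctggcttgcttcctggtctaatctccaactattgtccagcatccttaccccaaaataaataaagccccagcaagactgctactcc
Csn1s2a: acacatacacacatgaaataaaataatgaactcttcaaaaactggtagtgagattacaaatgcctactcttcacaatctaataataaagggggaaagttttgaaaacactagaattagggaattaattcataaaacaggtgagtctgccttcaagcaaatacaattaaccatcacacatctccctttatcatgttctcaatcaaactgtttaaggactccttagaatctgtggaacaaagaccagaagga
Wap: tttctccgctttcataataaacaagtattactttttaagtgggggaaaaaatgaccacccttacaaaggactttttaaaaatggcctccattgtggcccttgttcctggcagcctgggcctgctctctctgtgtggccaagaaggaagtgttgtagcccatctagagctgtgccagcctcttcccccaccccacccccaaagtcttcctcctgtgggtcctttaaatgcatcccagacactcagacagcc
The pattern begins 93 bases before the start site in Csn2, 100 bases before it in Csn1s1 and 145 bases before it in Glycam1. It is not in these windows of Csn1s2a, Wap or Lalba. Over all 32851 RefSeq promoters of the same length 7.02% hold it, over those of tested genes 5.64%, and over those of the genes that were higher in high-casein tumours 4.81%. Among 17 promoters of 16 score and milk protein genes 3 held it. These matches describe letters and not binding.

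The score ranged from 12.46 to 13.32 in the high-casein tumours (median 13.08), against 6.82 to 10.35 in the low-casein tumours (median 8.79). The last tumour inside the high group scored 12.46 and the next one outside it 12.21, and the last inside the low group scored 10.35 and the next outside it 10.39. The high group is thus tight, and the low group is spread over several log2 units. Csn2 had 11.61, 13.26 and 13.77 as the lowest, median and highest level in high-casein tumours, against 5.73, 9.37 and 12.75 in low-casein tumours. Csn3 had 13.52, 14.36 and 14.73 in high-casein tumours, against 8.58, 10.91 and 13.57 in low-casein tumours. The brightest probe set of each array lay between 14.43 and 14.82, so Csn3 is near the top of the scale in the high group, and whether its signal was saturated was not tested. Lalba had 9.51, 11.80 and 12.65 in high-casein tumours, against 4.51, 5.62 and 9.69 in low-casein tumours.

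The 3 score genes did not move as 1 unit. Over the 48 tumours, which the score orders, Pearson's r was 0.43 between Csn2 and Csn3, 0.43 between Csn2 and Lalba, and 0.60 between Csn3 and Lalba. Within the 24 middle tumours the same correlations were -0.20, -0.51 and -0.15. These tumours were picked by a narrow band of the mean of the 3 genes, which by itself pushes the correlations down. These 3 values therefore do not show how the genes go together. A middle tumour of a heterozygous sham host (repeat 3) had Csn2 at 7.02 beside Csn3 at 13.59 and Lalba at 13.59. In the opposite pattern, a low-casein tumour of an irradiated wild-type host (repeat 16) had Csn2 at 12.11, Csn3 at 9.33 and Lalba at 5.71. Another low-casein tumour, of a wild-type sham host (repeat 5), had Csn2 at 12.75, within the range of the high group, and Lalba at 6.70.

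High-casein and low-casein tumours were found in every host group. Tumours of irradiated heterozygous hosts included 3 of the high group and 2 of the low group, and tumours of sham heterozygous hosts 2 and 2. Tumours of irradiated wild-type hosts included 5 and 5, and tumours of sham wild-type hosts 2 and 3. The mean score was 11.57 ± 1.48 in irradiated and 11.40 ± 1.76 in sham heterozygous hosts (SD, n = 10 and 6), a difference of 0.17 (two-sided exact permutation test, p = 0.843). It was 11.08 ± 1.71 in irradiated and 10.78 ± 1.84 in sham wild-type hosts (SD, n = 23 and 9), a difference of 0.30 (exact permutation test, p = 0.668). Heterozygous hosts exceeded wild-type hosts by 0.62 among sham hosts (exact permutation test, p = 0.534) and by 0.49 among irradiated hosts (permutation test with 100000 resamples, p = 0.439). After Benjamini-Hochberg adjustment over these 4 comparisons each p was 0.843. The differences lie within the spread of 1.48 to 1.84 between tumours of a host group, and the first was -0.37 to 0.55 when 1 tumour was left out (-0.37 without heterozygous sham host 1).

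**Figure D1:**
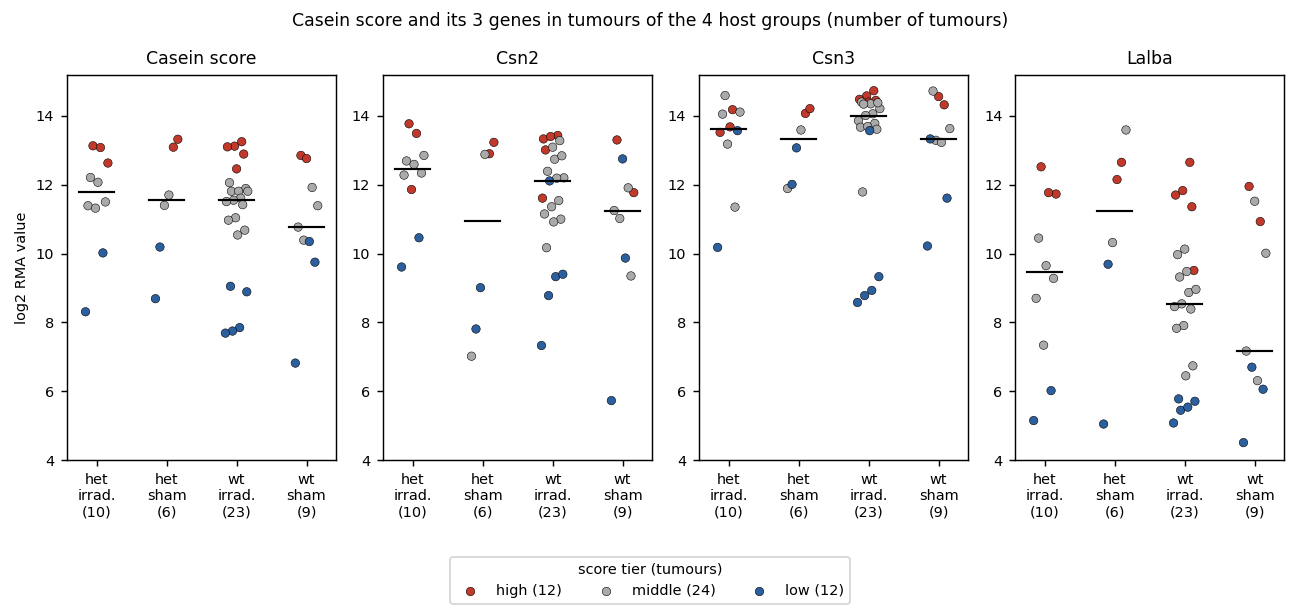
Casein score and the levels of Csn2, Csn3 and Lalba (log2 RMA values) in the 48 tumours by host group (het, TGFb1 heterozygous; wt, wild type; irrad., irradiated), with points coloured by score group and lines at host group medians. High-casein tumours (12.46 to 13.32) and low-casein tumours (6.82 to 10.35) are present in all 4 host groups, and Csn3 gathers near the top of the scale while Lalba is spread widely.

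Outside the score genes, 10913 genes were tested with limma between the 12 high-casein and the 12 low-casein tumours, with Benjamini-Hochberg adjustment over all of them and a threshold of 0.05. Of these, 498 were higher in high-casein tumours, which is 4.56% of tested genes, and 293 were lower, which is 2.68% (7.25% in either direction). More than 4-fold differences were found for 92 of the higher and 5 of the lower genes. An unadjusted limma p under 0.05 was found for 2697 of the 10913 genes. Differences below are high minus low, in log2 units, with the standard error. The number of calls hangs on single tumours. It was 346 to 806 higher and 158 to 569 lower when 1 of the 24 tumours was left out, with 806 and 569 without the high-casein tumour of irradiated heterozygous host 11, and 750 and 529 without the low-casein tumour of irradiated heterozygous host 18.

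The milk protein genes outside the score were higher together. All 12 tested of 14 measured were called higher, against the 4.56% of all tested genes, with a median difference of 2.73 beside 0.00 over all genes. Since caseins chose the groups and milk genes are expressed by the same cells, this count is close to what the choice of groups used. The filter on the tumour mean (6.19) also shaped it. Lao1 and Cel had low-casein means of 5.53 and 5.78 and middle medians of 5.79 and 6.14. Their high-casein means were 7.51 and 7.30, so they passed the filter through the high group. Csn1s2a, another calcium-sensitive casein, had 11.54, 13.37 and 14.41 as the lowest, median and highest level in high-casein tumours, against 3.69, 7.70 and 11.61 in low-casein tumours. Its difference of 5.96 (SE 0.68, adjusted p = 5.40e-05) was the largest of all tested genes, and the ranges overlapped only slightly, with 10 of 12 high-casein tumours above every low-casein tumour. Csn1s1, alpha-S1-casein, had 11.23, 14.10 and 14.40 in high-casein tumours, against 7.08, 9.15 and 13.45 in low-casein tumours (difference 4.22, SE 0.59, adjusted p = 0.000287). Glycam1, a mucin-like protein secreted into milk, had 5.14, 11.07 and 13.11 in high-casein tumours, against 3.56, 4.41 and 8.38 in low-casein tumours. Its difference was 5.59 (SE 0.82, adjusted p = 0.000479), although 2 high-casein tumours stayed within the low range.

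Wap, the whey acidic protein, also varied widely inside the high group, as Glycam1 did. It had 6.20, 10.02 and 12.76 in high-casein tumours, against 4.52, 5.57 and 8.25 in low-casein tumours (difference 3.75, SE 0.64, adjusted p = 0.00244). The groups overlapped for it in 4 of the 12 high-casein tumours. The antibacterial iron-binding protein Ltf differed by 3.36 (SE 0.63, adjusted p = 0.00393), the mucin Muc1 by 2.75 and Pigr, which carries immunoglobulin A across epithelium, by 2.71. Smaller differences were found for Wfdc18 (2.08), Lao1, an amino acid oxidase of milk (1.98), Lcn2 (1.89), Cel, the bile salt-stimulated lipase (1.52), and Mfge8, a milk fat globule protein (1.15). Lcn2 and Cel were called in 9 and 11 of the 24 fits that left out 1 tumour (adjusted p up to 0.0713 without irradiated wild-type host 7 and 0.0711 without irradiated wild-type host 4). Csn1s2b and Olah were too dim to be tested. Csn1s2b reached 8.71 in the high-casein tumour where it was highest, against at most 3.74 in low-casein tumours, and its medians were 4.43 and 3.54.

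**Figure D2:**
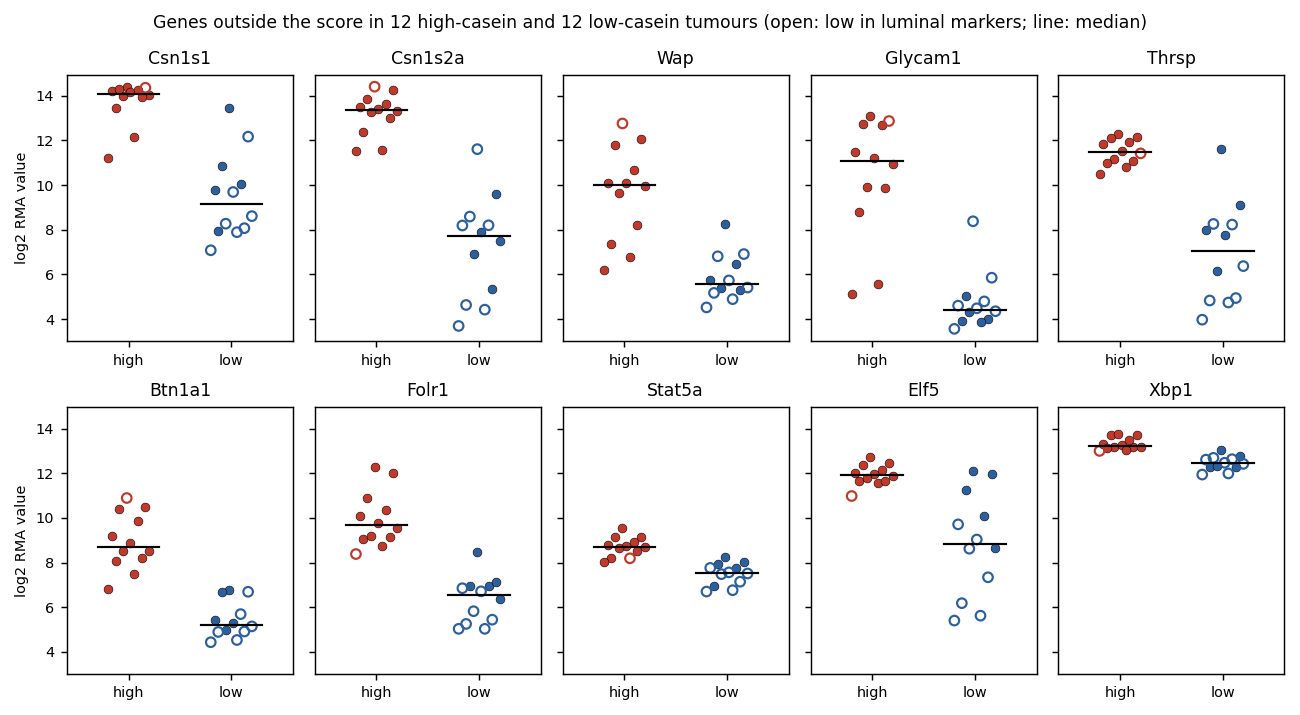
Log2 RMA level of 10 genes outside the score in the 12 high-casein tumours (red) and the 12 low-casein tumours (blue), with lines at the medians and open points for tumours low in luminal markers. For Btn1a1 the groups do not overlap (6.81 to 10.89 in high-casein and 4.43 to 6.79 in low-casein tumours), while Elf5 is narrow in high-casein tumours and spread from 5.40 to 12.08 in low-casein tumours.

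Of the 21 tested genes of milk fat synthesis and secretion 7 were called higher, against 4.56% of all tested genes, and 0 lower, with a median difference of 0.51. Thrsp, which promotes fatty acid synthesis in the lactating gland, had 10.48, 11.47 and 12.27 in high-casein tumours, against 3.97, 7.06 and 11.61 in low-casein tumours (difference 4.49, SE 0.63, adjusted p = 0.000287). Btn1a1, butyrophilin, a protein of the milk fat globule membrane, had 6.81, 8.71 and 10.89 in high-casein tumours, against 4.43, 5.21 and 6.79 in low-casein tumours. Its difference was 3.49 (SE 0.42, adjusted p = 5.51e-05), and it was the only tested gene with no overlap between the groups in the higher direction, which is 0.00916% of tested genes, while 0 genes (0.00%) had none in the lower direction. Xdh, xanthine oxidoreductase, which binds butyrophilin during droplet release, differed by 1.57 (SE 0.34, adjusted p = 0.00978). Scd1, the stearoyl-CoA desaturase, differed by 1.56 (SE 0.35, adjusted p = 0.0114) and was at least 9.57 in each of the 24 tumours.

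Genes of lactose synthesis and milk transport were called higher in 6 of 13 tested, against 4.56% of all tested genes, and lower in 0. Their median difference was 0.97. Folr1, a folate receptor found in milk, had 8.38, 9.66 and 12.27 in high-casein tumours, against 5.03, 6.53 and 8.45 in low-casein tumours (difference 3.62, SE 0.44, adjusted p = 5.94e-05), so that only 1 high-casein tumour fell within the low range. Slc28a3, a nucleoside transporter, differed by 2.75 (SE 0.41, adjusted p = 0.000677). Its low-casein mean was 4.86, its middle median 6.27 and its high-casein mean 7.61. The high group thus helped it pass the filter on the tumour mean (6.19), which also shaped the count of 6 of 13. The same limit applies to its call with the luminal covariate below. Aqp5, a water channel, differed by 2.35 (adjusted p = 0.0182), and Slc30a2, the zinc exporter that loads zinc into milk, by 2.14 (adjusted p = 0.00713).

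The prolactin and Stat5 pathway had 8 of 18 tested genes called higher, against 4.56% of all tested genes, and 0 lower. The median difference was 0.64. The prolactin receptor itself was not analysed here. Stat5a had 8.03, 8.71 and 9.55 in high-casein tumours, against 6.70, 7.53 and 8.25 in low-casein tumours. The difference of 1.23 (SE 0.19, adjusted p = 0.000899) is small beside those of the milk genes but regular, with 9 of 12 high-casein tumours above every low-casein tumour. Socs2, a Stat5 target and feedback inhibitor of cytokine signalling, differed by 1.73 (SE 0.46, adjusted p = 0.0247). Gata3, a transcription factor of luminal cells, differed by 1.59 (SE 0.35, adjusted p = 0.0107) and the Ets factor Elf3 by 1.89 (SE 0.48, adjusted p = 0.0196). Elf5 had 10.98, 11.92 and 12.73 in high-casein tumours, against 5.40, 8.84 and 12.08 in low-casein tumours (difference 3.10, SE 0.65, adjusted p = 0.00742). No high-casein tumour was low in Elf5, but some low-casein tumours had as much of it as the high group.

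Secretory machinery was not higher as a whole. Of 20 tested genes of the secretory pathway and the ER chaperones 2 were called higher, beside 4.56% of all tested genes. The median difference was 0.08. One was Xbp1, a transcription factor of secretory capacity that is also used as a plasma cell marker, at 13.00, 13.22 and 13.76 in high-casein tumours, against 11.94, 12.44 and 13.06 in low-casein tumours (difference 0.86, SE 0.12, adjusted p = 0.000287). The other was Ssr4, a subunit of the translocon-associated complex, with a difference of 0.39 (adjusted p = 0.0164). Of 12 tested genes of cholesterol synthesis 0 were called, with differences between -0.45 and 0.48 and unadjusted p over 0.05 for each.

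Luminal markers were lower in part of the low-casein group. All 17 tested keratin and adhesion genes of luminal cells had unadjusted p under 0.05, beside 2697 of all 10913 tested genes. Of the 17, 6 were called higher, against 4.56% of all tested genes, and 0 lower, and the median difference was 1.89. The mean of the 18 measured genes of this list per tumour was 8.37, 10.87 and 11.04 (lowest, median, highest) in high-casein tumours, against 6.19, 8.79 and 10.95 in low-casein tumours. Of the 48 tumours 11 lay under a limit of 9.87, and these were 1 high-casein tumour, 7 low-casein tumours and 3 middle tumours. The remaining 5 low-casein tumours lay within the range of the high group. Examples are Esrp2, an epithelial splicing factor (difference 2.51, SE 0.54, adjusted p = 0.00906), and the tight junction gene Cldn7 (2.50, SE 0.69, adjusted p = 0.0300). Cldn7 was called in 20 of the 24 fits that left out 1 tumour (adjusted p up to 0.0555 without irradiated wild-type host 7). In bulk tumours fewer luminal cells and less RNA per luminal cell cannot be told apart.

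**Figure D3:**
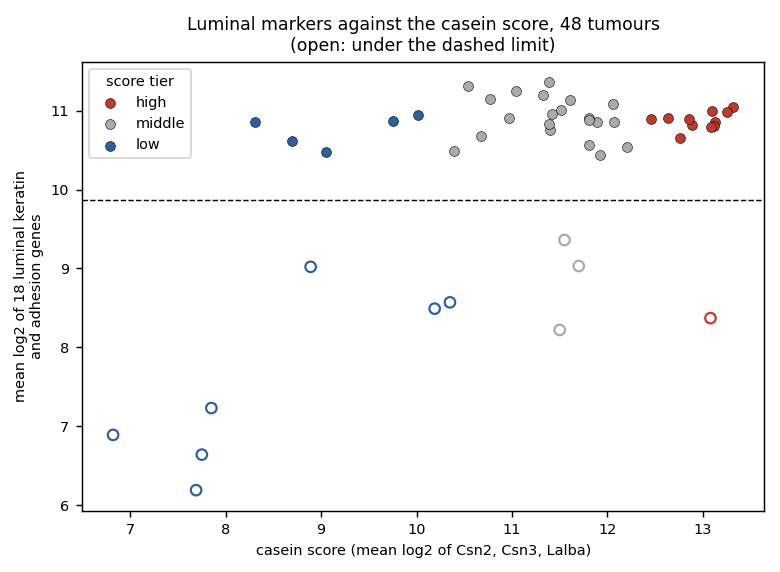
Mean log2 level of 18 luminal keratin and adhesion genes against the casein score in the 48 tumours, coloured by score group, with a dashed line at 9.87 and open points under it. Of the points under the line 1 is a high-casein tumour (8.37) and 7 are low-casein tumours (6.19 to 9.02), while 5 low-casein tumours lie above it beside the high group.

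Against this background the milk genes were compared again at equal luminal level. With the luminal list mean as a covariate, 33 genes were called higher (0.302% of tested genes) and 13 lower (0.119%, and 0.422% in either direction), and 25 of the 498 and 5 of the 293 first called were among them. Each of the 498 and of the 293 kept its direction. Csn1s2a differed by 6.06 (SE 0.83, adjusted p = 0.00149), Glycam1 by 6.00 (SE 0.98, adjusted p = 0.00616), Wap by 3.71 (SE 0.78, adjusted p = 0.0348) and Csn1s1 by 3.46 (SE 0.65, adjusted p = 0.0163), so these 4 of the 12 milk protein genes stayed past the threshold. So did Btn1a1 (3.29), Thrsp (3.01), Folr1 (2.82), Slc28a3 (2.22), Stat5a (0.89, SE 0.20, adjusted p = 0.0371) and Xbp1 (0.76). Elf5 had a difference of 1.24 (SE 0.39) and was no longer called (adjusted p = 0.105). The median difference of the luminal list itself was 0.03 in that fit, and that of the milk proteins 1.96.

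Leaving out the 11 tumours under the luminal limit left 11 high-casein and 5 low-casein tumours, with 330 genes called higher (3.02%) and 142 lower (1.30%, and 4.33% in either direction), and 122 of the 498 and 46 of the 293 were called in both fits. Among the 11 and 5 tumours Csn1s2a lay at 11.54 to 14.24 in high-casein and 5.34 to 9.62 in low-casein tumours (difference 5.61, SE 0.55, adjusted p = 9.26e-05). Glycam1 lay at 5.14 to 13.11 in high-casein and 3.88 to 5.04 in low-casein tumours, so the lowest high-casein value was close to the highest low-casein value. Stat5a differed by 0.98 (SE 0.23, adjusted p = 0.0262) and Btn1a1 by 2.94 (SE 0.53, adjusted p = 0.0104), while Wap, with a difference of 3.12 (SE 0.87), was called with an adjusted p just under the threshold. Elf5 had 11.58, 11.96 and 12.73 in high-casein tumours, against 8.66, 11.26 and 12.08 in low-casein tumours, a difference of 1.21 (SE 0.41, adjusted p = 0.106). With 5 tumours in 1 group these values rest on few arrays.

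The high-casein tumour low in luminal markers, from irradiated heterozygous host 11, is described here as a single array. Its luminal list mean was 8.37, but its Csn1s1 of 14.36, Csn1s2a of 14.41, Wap of 12.76 and Btn1a1 of 10.89 were at or near the top of the high group. Its Stat5a was 8.19 and its Elf5 10.98, the lowest Elf5 of the high-casein tumours. This tumour also had the highest fibroblast (12.46), adipocyte (8.89) and mesenchymal (10.29) list means of the high group. The mix of cells in it was not tested.

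Genes of luminal progenitor and alveolar identity were called higher in 4 of 15 tested, against 4.56% of all tested genes. Their median difference was 1.46, and 0.22 with the luminal mean as a covariate. Lbp, which binds bacterial lipopolysaccharide, differed by 2.40 (SE 0.43, adjusted p = 0.00328), and Kcnn4, a potassium channel, by 1.97 (SE 0.40, adjusted p = 0.00677). Of 5 tested genes of hormone-sensing luminal cells 1, the coactivator Cited4, was called higher (2.68, SE 0.71, adjusted p = 0.0242), beside 4.56% of all tested genes. Esr1, the estrogen receptor, had 6.47, 7.60 and 8.39 in high-casein tumours, against 5.09, 6.96 and 10.40 in low-casein tumours (difference 0.18, SE 0.46, adjusted p = 0.845). Pgr, the progesterone receptor, was too dim to be tested, with medians of 5.34 and 5.18.

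**Figure D4:**
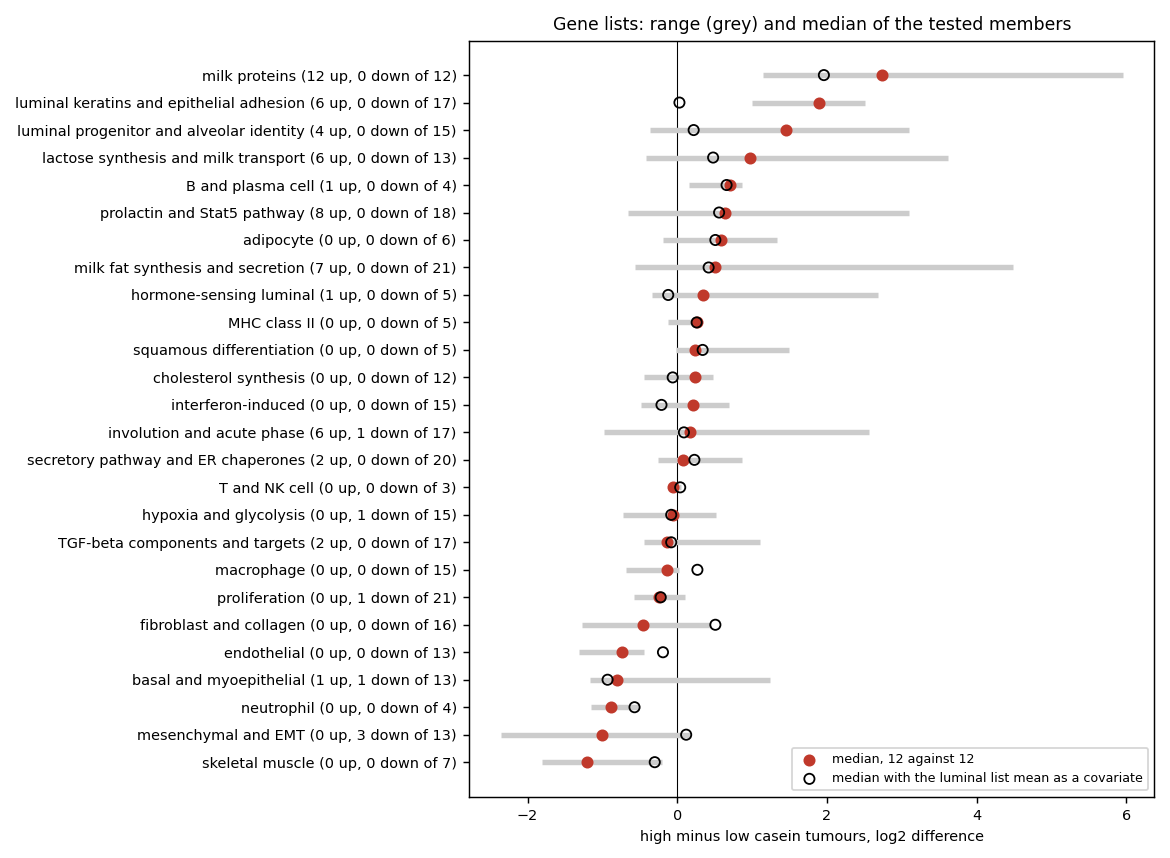
High minus low log2 difference for 26 gene lists, with the range over tested members (grey bar), their median in the 12 against 12 comparison (red) and their median with the luminal list mean as a covariate (open), and called members in brackets. The milk proteins keep a median of 1.96 with the covariate, against 2.73 without it, whereas the luminal keratin and adhesion list is at 0.03, against 1.89.

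Of 13 tested mesenchymal genes 3 were called lower in high-casein tumours, against 2.68% of all tested genes, 0 were called higher and 10 did not pass the test. Differences ran between -2.36 and 0.18, with a median of -1.01. These were Cdh2, N-cadherin (difference -2.36, SE 0.72, adjusted p = 0.0469), Snai2, a transcription factor of epithelial-mesenchymal transition that basal cells also express (-2.22, SE 0.54, adjusted p = 0.0165), and the receptor kinase Axl (-1.02, SE 0.29, adjusted p = 0.0369). Snai2 had 6.62, 7.90 and 10.58 in high-casein tumours, against 7.19, 10.49 and 12.37 in low-casein tumours. Cdh2 and Axl were called in 7 and 11 of the 24 fits that left out 1 tumour (adjusted p up to 0.0850 and 0.0677, both without sham wild-type host 8). With the luminal mean as a covariate 0 of the 13 were called and their median difference was 0.12.

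Other genes with large lower differences were in none of the lists above. Pdpn, podoplanin, had 7.99, 9.45 and 11.52 in high-casein tumours, against 9.04, 12.09 and 13.50 in low-casein tumours (difference -2.37, SE 0.48, adjusted p = 0.00620). Serpinb6b differed by -2.36 (SE 0.55, adjusted p = 0.0130), Dpysl3 by -2.15, the secreted hormone Stc1 by -1.95 (adjusted p = 0.0692 without irradiated wild-type host 2), Plat, the tissue plasminogen activator, by -1.90, and the adhesion molecule Vcam1 by -1.88. Tpm2, a tropomyosin (-1.82), Gstm2 (-1.76), Exoc3l4 (-1.69) and the connexin Gjc1 (-1.68) followed. Serpinb6b had a high-casein mean of 6.14, a middle median of 6.16 and a low-casein mean of 8.51. It thus passed the filter on the tumour mean (6.19) through the low group. The smallest p among lower genes belonged to Cdkn2d, an inhibitor of the cell cycle kinases Cdk4 and Cdk6, at 8.25, 8.63 and 8.98 in high-casein tumours, against 8.75, 9.32 and 9.92 in low-casein tumours. Its difference was -0.72 (SE 0.11, adjusted p = 0.00121), and it was still called with the luminal covariate (-0.59, SE 0.13, adjusted p = 0.0409). Orai2, a calcium channel subunit (-1.03, SE 0.17, adjusted p = 0.00194), and Traf1, an adaptor of TNF receptors (-1.41, SE 0.24, adjusted p = 0.00254), were also called in both fits.

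Among the higher genes outside the lists, Car6, a secreted carbonic anhydrase, differed by 4.10 (SE 0.64, adjusted p = 0.000986) and had 7.39, 9.68 and 12.34 in high-casein tumours, against 4.36, 5.16 and 9.41 in low-casein tumours. Col9a1, a collagen chain best known from cartilage, differed by 3.97 (SE 0.72, adjusted p = 0.00364), the mucin Muc15 by 3.70, Tesc by 3.62 and Clca3a2 by 3.47. Of these, Car6 was called with the luminal mean as a covariate (3.45, SE 0.74, adjusted p = 0.0371).

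Most lists of stromal, vessel and immune genes had 0 calls, and markers of basal cells were high in part of the low-casein group. Of 13 tested basal and myoepithelial genes 1 was called higher, Sparcl1 (1.24, adjusted p = 0.0347), and 1 lower, Dkk3 (-1.10, adjusted p = 0.0474). Over all tested genes 4.56% were called higher and 2.68% lower. Sparcl1 was called in 14 and Dkk3 in 8 of the 24 limma fits that left out 1 tumour. The largest adjusted p was 0.0615 for Sparcl1 (without irradiated wild-type host 14) and 0.0858 for Dkk3 (without sham wild-type host 8). The basal list mean was 6.91, 7.63 and 8.72 in high-casein tumours, against 6.93, 7.73 and 10.31 in low-casein tumours. Irradiated wild-type hosts 3 (10.31) and 16 (9.79), irradiated heterozygous host 9 (10.31) and sham heterozygous host 1 (9.05) exceeded every high-casein tumour. The other low-casein tumours lay within the high range. Without tumours low in luminal markers the median difference of the list was -1.14. Fibroblast and collagen genes (16 tested), endothelial genes (13), macrophage genes (15), T and NK cell genes (3), neutrophil genes (4), adipocyte genes (6), MHC class II genes (5), squamous differentiation genes (5) and interferon-induced genes (15) had 0 calls in either direction. At an unadjusted p under 0.05 limma gave 2, 1, 0, 0, 1, 1, 0, 1 and 1 genes in these lists, in that order. Over all tested genes it gave 2697 of 10913. Each tested endothelial gene was lower in high-casein tumours (differences -1.31 to -0.44), and so was each tested neutrophil gene (-1.15 to -0.51). In wild-type hosts alone limma called the fibroblast genes Sparc (-1.18, adjusted p = 0.0153) and Pdgfra (-2.04, adjusted p = 0.0434) lower. There 370 of all 10913 tested genes were called lower. In heterozygous hosts alone Sparc and Pdgfra differed by -0.08 and -0.02 and were not called. The fibroblast list mean was 9.45 to 12.46 in high-casein tumours and 8.86 to 12.27 in low-casein tumours, and that of macrophages 9.41 to 10.98 and 9.01 to 11.51.

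Skeletal muscle genes stood out in single tumours. The muscle list mean was 4.90, 4.96 and 10.15 in high-casein tumours, against 4.63, 5.51 and 10.91 in low-casein tumours. The low-casein tumours of irradiated wild-type hosts 2 (9.73) and 23 (10.91), of sham wild-type host 6 (10.01) and of irradiated heterozygous host 9 (9.55) were high, and so was the high-casein tumour of irradiated heterozygous host 17 (10.15). Tnnc2, a troponin of fast muscle, had a difference of -1.81 (SE 1.09, adjusted p = 0.312). Of 7 tested muscle genes 0 were called and 0 had an unadjusted p under 0.05. With a slope on the score over all 48 tumours, 6 of the 7 were called lower with a higher score (median slope -0.46). That fit called 863 of all 10913 tested genes lower. The part of muscle RNA in the other differences was not tested.

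Genes of mammary involution and the acute phase were called higher in 6 of 17 tested and lower in 1, beside 4.56% and 2.68% of all tested genes. The serum amyloid genes Saa1 (2.56, SE 0.68, adjusted p = 0.0241) and Saa2 (1.56, SE 0.47, adjusted p = 0.0431) were among the higher, with Igfbp5, which rises in involution (1.49, SE 0.45, adjusted p = 0.0457), and with Lbp, given above. Saa2 and Igfbp5 lost the call without 1 of several tumours (adjusted p up to 0.0744 without irradiated heterozygous host 17 and 0.0781 without irradiated wild-type host 7). The lower one, named after its value was seen, was Il6st, the shared signalling receptor gp130 of the interleukin-6 family (-0.98, SE 0.25, adjusted p = 0.0221). Saa1 and Saa2 are near-identical copies, so their probe sets may share signal. Saa2 had a low-casein mean of 5.58, a middle median of 6.17 and a high-casein mean of 7.15. It thus passed the filter on the tumour mean (6.19) through the high group, which shaped the count of 6 of 17. Of 17 tested TGF-beta components and targets 2 were called higher, beside 4.56% of all tested genes. They were the ligands Tgfb3 (1.10, adjusted p = 0.0420) and Tgfb2 (1.02, adjusted p = 0.0182). Tgfb3 was called in 8 of the 24 fits that left out 1 tumour (adjusted p up to 0.0760 without sham wild-type host 8). Tgfb2 differed by 0.23 (adjusted p = 0.767) when the score was made from Csn2 and Csn3 and by 1.40 (0.0108) when it was Lalba alone, and with the luminal covariate it was not called (1.00, adjusted p = 0.103). Tgfb3 was called in none of these 3 fits (0.90, 1.01 and 1.24, adjusted p = 0.125, 0.0820 and 0.110). Tgfb1, whose host copy number the study varied, had 8.04, 8.50 and 8.82 in high-casein tumours, against 7.88, 8.81 and 11.33 in low-casein tumours (difference -0.45, SE 0.26, adjusted p = 0.294). Of 21 tested proliferation genes Cdc20, which activates the anaphase-promoting complex, was called lower (-0.58, SE 0.16, adjusted p = 0.0309), and of 15 hypoxia and glycolysis genes P4ha1, a collagen prolyl hydroxylase, was called lower (-0.72, SE 0.20, adjusted p = 0.0321). Cdc20 and P4ha1 were the only called genes of their lists, beside 2.68% of all tested genes called lower. Each of these 2 was called in 16 of the 24 limma fits that left out 1 tumour. The largest adjusted p was 0.0582 for Cdc20 (without irradiated wild-type host 7) and 0.0567 for P4ha1 (without sham heterozygous host 6).

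The middle tumours, which no group used, gave a separate look at the same genes. In 24 tumours whose scores spanned 10.39 to 12.21, a slope of each gene on the score was fitted with limma. Of 10913 genes 0 were called (0.00%), the smallest adjusted p was 1.00, and 270 had an unadjusted p under 0.05, where 5% of the genes is 546. Slopes had the direction of the high minus low difference in 341 of the 498 higher genes (68.5%) and 191 of the 293 lower genes (65.2%), beside 57.7% of all tested genes, and genes are not independent of each other. Of the 498 and the 293, 14 (2.81%) and 6 (2.05%) also had an unadjusted p under 0.05, beside 1.59% of all tested genes. The slopes of the 12 tested milk protein genes ran between -0.31 and 1.39 per unit of score. They were 1.39 for Wap (SE 0.58, p = 0.0244), 1.24 for Csn1s2a (SE 0.58, p = 0.0414), 0.45 for Lao1 (SE 0.17, p = 0.0158), 1.09 for Glycam1 (p = 0.151), 0.49 for Csn1s1 (p = 0.221), 0.31 for Muc1, 0.12 for Mfge8, 0.03 for Cel, 0.02 for Wfdc18, 0.01 for Lcn2, -0.12 for Ltf and -0.31 for Pigr. The slope of Elf5 was 0.53 (SE 0.44, p = 0.246) and that of Elf3 -0.28 (p = 0.461). The narrow range of scores limits what these 24 arrays can show.

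Elf5 differed between host genotypes in how it went with the score. Over all 48 tumours limma fitted a slope of each gene on the score in each host genotype. Elf5 was the 1 gene of 10913 (0.00916%) whose slopes differed past the threshold. It did not stand alone, since 1550 genes had an unadjusted p under 0.05, where 5% of the genes is 546. The luminal keratin and adhesion genes Esrp2, Cldn7, St14 and Marveld2 differed the same way without being called. Their slope differences were -0.79, -0.94, -0.74 and -0.81 (adjusted p = 0.0627, 0.0743, 0.0818 and 0.0996). The slope of Elf5 was 0.09 in heterozygous hosts (SE 0.18, n = 16) and 1.08 in wild-type hosts (SE 0.09, n = 32), a difference of -1.0 (SE 0.19, adjusted p = 0.0421). In heterozygous hosts Elf5 lay at 10.98 to 12.15 in the 5 high-casein tumours and at 9.03 to 12.08 in the 4 low-casein tumours. In wild-type hosts it lay at 11.66 to 12.73 in the 7 high-casein tumours and at 5.40 to 10.09 in the 8 low-casein tumours. Low luminal markers moved with this, since 1 of the 4 low-casein tumours in heterozygous hosts and 6 of the 8 in wild-type hosts lay under the luminal limit. The part of that in the difference was not tested. The call held in 24 of 48 fits that left out 1 tumour (slope difference -1.08 to -0.87, largest adjusted p = 0.347), and without a filter on dim genes the adjusted p was 0.0741.

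**Figure D5:**
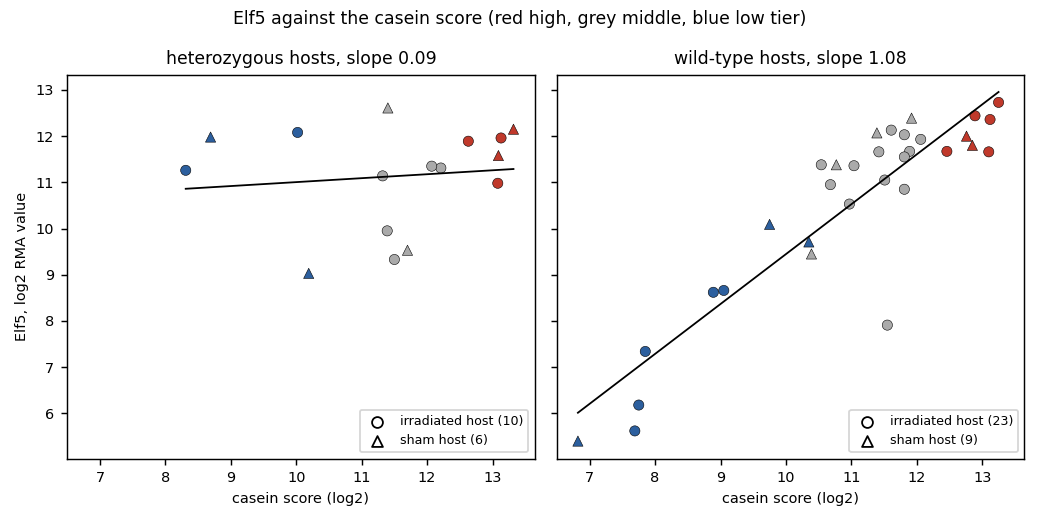
Elf5 level (log2 RMA value) against the casein score in tumours of heterozygous hosts (left) and wild-type hosts (right), coloured by score group, with circles for irradiated and triangles for sham hosts and the fitted line. The slope is 0.09 in heterozygous hosts and 1.08 in wild-type hosts, where the low-casein tumours reach down to 5.40.

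Within host genotypes the main genes had the same direction. In wild-type hosts alone (7 high-casein and 8 low-casein tumours) Csn1s2a differed by 5.57 (SE 0.88), Stat5a by 1.37 (SE 0.25) and Elf5 by 4.39 (SE 0.65), and each was called by limma (adjusted p = 0.00247, 0.00595 and 0.00178). In heterozygous hosts alone (5 and 4 tumours) Csn1s2a differed by 6.67 (SE 1.00), Stat5a by 1.00 (SE 0.30) and Elf5 by 0.62 (SE 0.57), and none was called (adjusted p = 0.238, 0.959 and 0.964). Of all genes 0 were called there, with 496 at an unadjusted p under 0.05.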

How the data were processed

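Tumour RNA (100 ng per sample) was labelled for Affymetrix arrays, per the labels' protocols. The authors deposited tumour values on the log2 scale, which the submitters' processing notes credit to RMA (version not stated). The authors deposited gland values as linear intensity, and these were not used. Each array holds 45101 probe sets, of which 34958 had 1 gene in the platform annotation, 932 several and 9211 none. Each of 18194 genes was read by its probe set with the highest tumour mean. Genes under the 40th percentile of tumour means (6.19) were left out, which left 10913 beside the score genes. Array medians were 5.84 to 5.96, pairs of tumours correlated at 0.894 to 0.991, and the number of arrays limits the precision.

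Genes were tested two-sided with limma 3.58.1 in R 4.3.3 (lmFit and eBayes with a trend), with Benjamini-Hochberg adjustment at 0.05, and the fit was tested on simulated data. Host groups were compared by permutation in Python 3.11.15. Named genes are the milk proteins, up to 4 called members of every other list (or up to 2 with the smallest p), the 12 largest differences and 5 smallest p in each direction, the 5 highest and 5 lowest correlations with the score, and a few fixed genes. Some genes this rule gives are only counted. Members, lists and tests were chosen with earlier results of these data known. Whether repeats carry a shared batch is not stated. The alternatives were other score, filter, scaling, covariate and group choices.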

Additional observations from a re-analysis of the deposited data

Results flagged for a closer look

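Elf5 was 5.40 in the low-casein tumour of sham wild-type host 6, a value far from those of the other tumours of sham wild-type hosts. The gap to its nearest neighbour was 0.58 of the whole range of the 9 tumours of sham wild-type hosts, and 15 combinations of a group and a value were tested, of which chance gives about 1 in 20. The same tumour had the lowest casein score (6.82), and it lay under the luminal limit with a luminal list mean of 6.89 and a muscle list mean of 10.01. Elf5 was similarly low, at 5.62 and 6.18, in the low-casein tumours of irradiated wild-type hosts 23 and 2. Their luminal list means were 6.19 and 6.64.

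The slope of Elf5 on the casein score differed between host genotypes by -1.0 per unit of score (heterozygous minus wild type, limma interaction, adjusted p = 0.0421). It was 0.09 in heterozygous and 1.08 in wild-type hosts.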

How the results depend on the processing

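Of 71 named genes called between 12 high-casein and 12 low-casein tumours, 55 were called in every fit that left out 1 tumour, 61 in wild-type hosts alone and 63 with the repeat number as a replicate block, which gave 447 genes higher and 261 lower. The repeat numbers do not mark pairs in the labels. The counts of genes higher and lower, 498 and 293 as reported, were 97 and 31 with 10 against 10 tumours, 1120 and 863 as a slope over 48 tumours and 789 and 528 with 3 groups sharing 1 variance. They were 121 and 66 with a score from Csn2 and Csn3, 212 and 106 with Lalba alone, 33 and 13 with the luminal covariate, and 330 and 142 without tumours low in luminal markers. With luminal, basal, mesenchymal and T cell list means as covariates, chosen after seeing the data, they were 4 and 0. In irradiated hosts alone they were 26 and 9, in heterozygous hosts alone 0 and 0 (limma, 496 at an unadjusted p under 0.05) and in sham hosts alone 0 and 0 (1026). A filter at the 60th percentile gave 162 lower. Leaving out 1 tumour gave 346 to 806 higher and 158 to 569 lower. The lower count moved by over 1.5 times without irradiated heterozygous hosts 10, 11, 17 or 18, sham heterozygous host 6, irradiated wild-type hosts 2, 7, 9, 11, 14, 18 or 23, or sham wild-type hosts 6 or 8. Without a filter the Elf5 slope difference had 0 genes called (adjusted p = 0.0741).

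Signs turned in few values, none of them called. Marveld2, a tight junction gene called at 1.95, was -0.27 and uncalled with the 4 list means, and Tgfb1 was 0.02 in heterozygous hosts alone. Esr1 was -0.02 as a slope, -0.45 in wild-type hosts alone, -0.29 in irradiated hosts alone and -0.02 to 0.46 without 1 tumour (-0.02 without sham heterozygous host 1). The score difference between irradiated and sham heterozygous hosts was -0.37 to 0.55 without 1 tumour (-0.01, 0.00, -0.07 and -0.37 where it turned), and that of wild-type hosts -0.20 to 0.56. The causes were not tested. Scaling did not move the median of all genes by over 0.1, and these arrays give no signal over background per probe, so dim genes are guarded only by the filter.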

Other observations

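A run of neighbouring genes on chromosome 8 was high in most low-casein tumours that kept luminal markers. It was noticed after the values were seen, among the genes called lower with the luminal mean as a covariate, where Pcid2, a nuclear export factor of messenger RNA, differed by -2.22 (SE 0.49, adjusted p = 0.0371) and its neighbour Cul4a, a ubiquitin ligase scaffold, by -1.93 (SE 0.44, adjusted p = 0.0479). Pcid2 had 7.75, 8.27 and 8.85 as the lowest, median and highest level in high-casein tumours, against 7.54, 8.77 and 12.15 in low-casein tumours. Its 5 highest values among the 48 tumours were 12.15 and 12.07 in irradiated heterozygous hosts 18 and 9, 11.89 in sham heterozygous host 1, 11.85 in sham wild-type host 7 and 11.64 in irradiated wild-type host 16, and the next was 9.77. The first 3 and the last are low-casein tumours, and sham wild-type host 7 carried a middle tumour with a score of 10.77. These 4 low-casein tumours are among the 5 that lay above the luminal limit.

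The same 5 tumours had the 5 highest values of Atp11a (13.15 to 13.82, next 12.97), Cul4a (10.88 to 12.35, next 10.67), Lamp1 (14.11 to 14.41, next 13.87), Grtp1, Dcun1d2 and Tmco3, and 4 of them did for Tfdp1, a partner of the E2F factors. These genes follow one another, with Mcf2l, in the RefSeq order of GRCm38.p6 among tested genes. Among their neighbours the sharing was partial, with 4 of the 5 for Tubgcp3 and Mcf2l and 3 of the 5 for Gas6, Cdc16, Champ1 and Coprs, and Rasa3, between Gas6 and Cdc16, shared 0. Between the 12 high-casein and 12 low-casein tumours the limma differences were -1.36 for Pcid2 (adjusted p = 0.0805), -1.22 for Cul4a (0.0758) and -1.39 for Dcun1d2 (0.0499). Dcun1d2 was called in 6 of the 24 fits that left out 1 tumour (adjusted p up to 0.0833 without irradiated wild-type host 2). Rasa3, which did not share the 5 tumours, differed by -1.43 and was called (adjusted p = 0.0266). DNA copy number was not measured in these files, and the cause of the pattern was not tested.

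In the same covariate fit Scube3 on chromosome 17 differed by -2.62 (SE 0.46, adjusted p = 0.0130) and Ccnd1, cyclin D1, by -1.02 (SE 0.23, adjusted p = 0.0482). Abcg2, the transporter that concentrates riboflavin and drugs in milk, differed by 1.51 (SE 0.33, adjusted p = 0.0371), and was not called in the comparison without the covariate.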
